A study of Mus musculus with 48 samples.

Results

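Brown adipose tissue (BAT, brown fat) of old mice that were moved late in life from full feeding to dietary restriction was compared with brown fat of old mice that had been fully fed throughout. The members are the 8 brown fat libraries of these 2 groups, chosen by their tissue, diet and age labels, out of 20 brown fat libraries and 48 libraries in the series. All came from female C3B6F1 mice, an F1 hybrid of inbred strains. AL mice (n = 3 libraries) ate freely and are labelled 26 months. ALDR mice (n = 5) ate freely until 24 months and were then held at 60% of the AL intake, reached in weekly steps of 10%, and are also labelled 26 months. The labels' protocol puts death at 27 months for old mice, within the 3 hours before the restricted mice were due to be fed. Other brown fat groups serve as reference only: DR mice at 26 months (n = 3), restricted to 60% from 12 weeks of age, DRAL mice at 26 months (n = 3), restricted likewise and returned to full feeding at 24 months, and AL and ALDR mice at 5 months (n = 3 each), the latter restricted for 2 months. The DRAL libraries enter the fit and the correlation with Tshr over all 20 libraries, and are in no comparison. The comparison addresses how far brown fat of old mice still responds to a newly imposed restriction. The labels call the replicates biological without tying a library to an animal, so p-values measure the spread between these libraries. The titles of the ALDR brown fat libraries write ADRL, and their descriptions give the switch from full feeding to restriction. The protocol speaks of epididymal fat, which females lack, so the dissected depot is not certain from the labels.

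Brown fat burns fatty acids to make heat. Noradrenaline from sympathetic nerves raises cyclic AMP in brown adipocytes, which releases fatty acids from lipid droplets and induces Ucp1, the inner mitochondrial membrane protein that lets protons leak back without making ATP. The deiodinase encoded by Dio2 adds to this by making active thyroid hormone inside the cell. Brown fat also takes up fatty acids and glucose from blood, makes fat from glucose, and has a circadian clock that follows feeding time and glucocorticoids.

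The tissue label was checked against marker genes. Ucp1 lay between 2775 and 5950 CPM in all 8 libraries, where CPM is the count relative to library size, scaled by TMM (trimmed mean of M-values) factors. The summed level of 10 brown adipocyte markers lay between 5549 and 9018 CPM. The sum over 9 thymus markers was 117 to 162 CPM in AL and 130 to 169 CPM in ALDR, of which Rag1, Rag2, Dntt and Foxn1 had no counts in any of the 8. The 4 Y-linked genes checked had none either. Library totals lay between 12314247 and 19349912 counts, at which 3 counts correspond to 0.155 to 0.244 CPM, a floor for counting error only. In bulk tissue, fewer cells of a type and less RNA per cell cannot be told apart.

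ALDR replicates 1 and 5 stood apart from the rest of their group. In a fit without ALDR replicate 1, edgeR called 835 genes different between ALDR and AL, and at only 256 of them (30.7%) did this library lie on the ALDR side of the midpoint between the groups. The same share was 93.4% to 97.2% for ALDR replicates 2 to 4, each over the genes called without that library, and 62.3% for replicate 5. It was 78.6%, 63.3% and 100% for AL replicates 1 to 3, over the 42, 90 and 17 genes called without each. ALDR replicate 5 carried milk protein genes of the mammary gland. The summed level of 8 such genes was 60441 CPM in this library, 6.3% of its counts, against 0.9 to 12.5 CPM in the other ALDR libraries and 0.18, 0.698 and 82.2 CPM in the AL libraries. Csn2, which encodes beta-casein, alone reached 23634 CPM there.

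Markers of other cells differed in mean between the groups. The sums overlapped for epithelium and muscle. All 11 epithelial markers tested had a higher mean in ALDR, and the summed level of the 12 on the list was 2.44, 2.35 and 20.1 CPM in AL replicates 1 to 3 and 7.65, 61.4, 58, 29.8 and 2720 CPM in ALDR replicates 1 to 5, the last mostly the casein gene Csn3. None of the 11 passed the edgeR test in all libraries (11 had an unadjusted p under 0.05, and DESeq2 called 5), and 6 passed without ALDR replicate 1. All 15 skeletal muscle markers had a higher mean in ALDR, with summed levels of 497, 848 and 10.1 CPM in AL and 550, 1534, 8543, 915 and 1933 CPM in ALDR. The highest value was in ALDR replicate 3, and AL replicate 3 had no counts of Myh7, Tnni2, Actn3 and Myoz1. None of these passed the test (1 had an unadjusted p under 0.05, and DESeq2 called 0). Liver markers summed to 32.4 CPM in AL replicate 3 and to 0.722 to 3.01 CPM in the other 7 libraries. Without AL replicate 3, edgeR called 17 genes, and the part of liver RNA in the results was not tested. The mesothelial markers Wt1, Upk3b, Upk1b and Bnc1 had no counts in any library, while the sum over the mesothelium list was 3.79 to 4.82 CPM in AL and 8.17 to 80 CPM in ALDR, without overlap. Krt19, which is on the epithelium list as well, was most of that sum in ALDR replicates 2 to 5. It had 0.722, 0.571 and 1.53 CPM in AL and 1.42, 17.3, 10.3, 7.5 and 72.3 CPM in ALDR. A fit with muscle and epithelium covariates was therefore run for each gene. Each covariate was the sum of log2 CPM over the markers, scaled over the 20 brown fat libraries, and not the summed CPM given here.

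**Figure D1:**
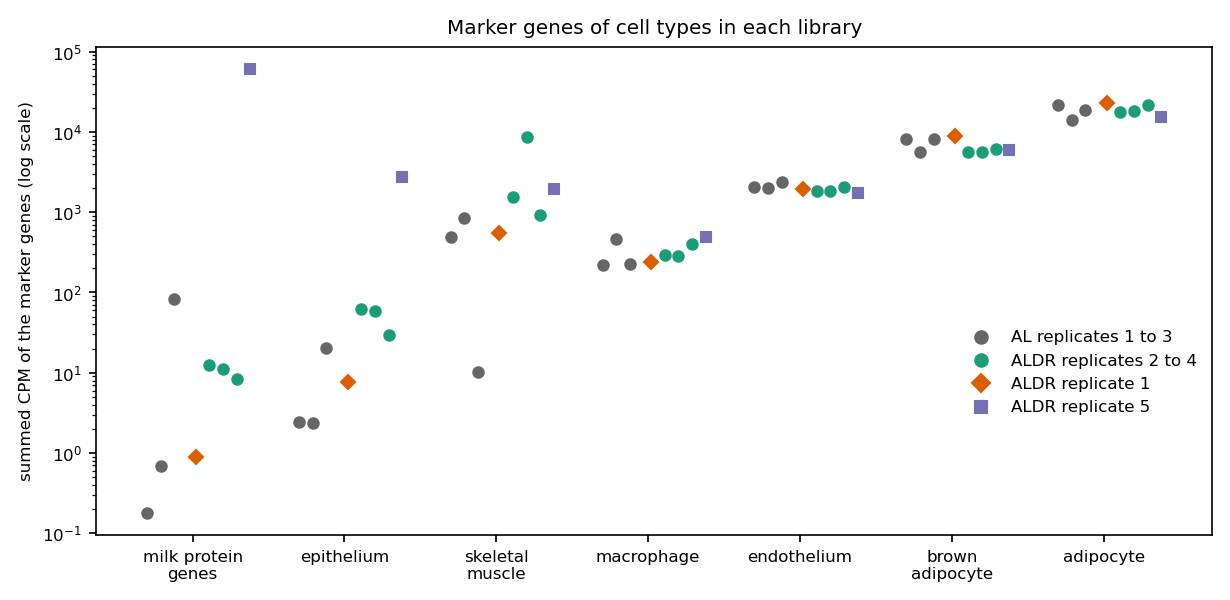
Summed CPM of marker genes (log scale) in each of the 8 libraries, by cell type; grey circles are AL, green circles ALDR replicates 2 to 4, the orange diamond ALDR replicate 1 and the violet square ALDR replicate 5. Milk protein genes stand at 60441 CPM in ALDR replicate 5, while the brown adipocyte markers lie between 5549 and 9018 CPM in every library.

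Few brown fat genes passed the edgeR test with all libraries, while 2380 of 13845 had an unadjusted p under 0.05. Of 13845 genes tested, 180 (1.30%) differed at an adjusted p under 0.05 (edgeR quasi-likelihood test, Benjamini-Hochberg adjustment over all genes), 80 higher (0.578%) and 100 lower (0.722%) in ALDR. The median log2 fold change was 0.7 among the 80 that rose and -0.66 among the 100 that fell, and 43 changed by at least 1 on the log2 scale. Libraries of the groups did not overlap in 167 of the 180, and in 1106 (7.99%) of all genes tested, or 2433 (17.6%) when ALDR replicate 1 is left out. Without this library the same test called 835 genes (6.04%), 393 higher and 442 lower, which included all 180. Without ALDR replicate 5 it called 273 (1.98%), of which 165 were among the 180, and without both it called 902 (6.57%), of which 177 were. ALDR replicate 1 was the ALDR library nearest to AL in 103 of the 180 genes, and the farthest in 20.

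The number of calls leaned on the AL libraries and on the fit. It was 17 without AL replicate 3, 42 without AL replicate 1, 90 without AL replicate 2, 81 without ALDR replicate 2 and 72 without ALDR replicate 4. It was 14 with the muscle and epithelium covariates, 4 in a fit of only these 8 libraries and 655 with DESeq2. Of 70 called genes examined singly, 56 missed the threshold without AL replicate 3 and 62 with the covariates. The 8 that passed with the covariates were Tshr, Gramd4, Grk3, Per2, Stxbp2, Herpud1, Etfbkmt and Tln2. None of the 70 changed direction in any alternative run. Per2, Tshr, Gramd4 and Grk3 were past the threshold in every one of them.

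Single genes of receptors and their signalling were among the calls. Together they form no tested list, and Ghr and Ngfr were chosen after their values were seen. Tshr (ENSMUSG00000020963; GRCm38 chromosome 12, 91384563 to 91549808), the receptor of thyroid-stimulating hormone, which acts through cyclic AMP, had 33, 30.2 and 33.5 CPM in AL replicates 1 to 3. Its locus overlaps Gm18827 on the same strand, so some reads may be of either. In ALDR replicates 1 to 5 it had 11, 15.5, 13.7, 13.3 and 16.3 CPM. Every ALDR library was below every AL library, and replicate 1 had the lowest value of all. Tshr fell by 1.21 ± 0.12 (SE) on the log2 scale (adjusted p = 5.6e-05). It was the single member of 15 tested in the thyroid hormone signalling list that passed, where 0.722% of all genes tested fell. Grk3, a kinase that desensitises G protein-coupled receptors, had 214, 182 and 215 CPM in AL and 131, 115, 110, 117 and 122 CPM in ALDR. It fell by 0.77 ± 0.10 (adjusted p = 0.000784), again with no overlap. Gramd4 showed the same separation, with 39.1, 33.2 and 39.4 CPM in AL and 18.4 to 21.7 CPM in ALDR, and fell by 0.87 ± 0.08 (adjusted p = 5.6e-05).

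Adcy5, an adenylyl cyclase that makes cyclic AMP, had 7.94, 16.3 and 11.6 CPM in AL and 2.85 to 7.39 CPM in ALDR, and fell by 1.17 ± 0.28 (adjusted p = 0.0462). It was the single member of 19 tested in the adrenergic and calcium signalling list that passed, where 0.722% of all genes tested fell, and 13 of the 19 had a higher mean in ALDR. With the covariates its adjusted p was 0.0615. Igf1, insulin-like growth factor 1, had 17.5, 34.1 and 18.5 CPM in AL and 10.1 to 14.7 CPM in ALDR, and fell by 0.92 ± 0.17 (adjusted p = 0.0119). Ghr, the growth hormone receptor that drives Igf1, fell by 0.37 ± 0.07 (adjusted p = 0.0118), with 188 to 194 CPM in AL and 136 to 159 CPM in ALDR. F2r, a thrombin receptor, fell by 0.78 and Ngfr, the low-affinity nerve growth factor receptor, by 0.93 (adjusted p = 0.00796 and 0.0218). The phosphatase genes Ptprg, Dusp1 and Dusp8 fell by 0.50, 1.68 and 1.42 (adjusted p = 0.00907, 0.0218 and 0.0256). Dusp1, which switches off MAP kinases and is induced within minutes by stress, was the single member of 21 tested in the immediate early list that passed, where 0.722% of all genes tested fell.

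**Figure D2:**
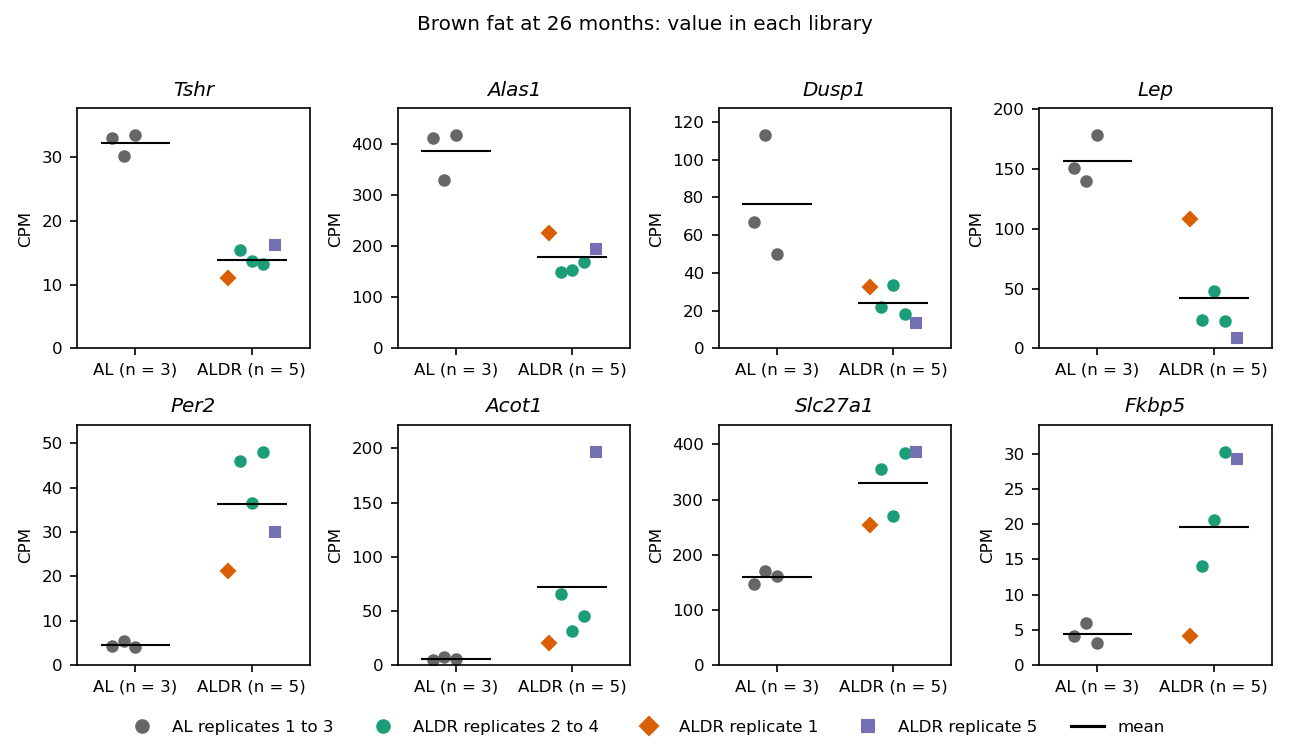
CPM of 8 genes in each AL and ALDR library (linear axes from 0); black lines are means, and symbols mark ALDR replicates 1 and 5. ALDR replicate 1 lies among the AL libraries for Fkbp5 and nearest to them for Lep and Per2, and has the lowest value of all for Tshr.

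The genes of heat production were not past the threshold. Ucp1 (ENSMUSG00000031710; chromosome 8, 83290352 to 83298452) had 4741, 3154 and 4772 CPM in AL and 5950, 2775, 2810, 3375 and 3757 CPM in ALDR replicates 1 to 5. The groups overlapped, ALDR replicate 1 had the highest value of all, and the log2 fold change was -0.18 ± 0.28 (SE; adjusted p = 0.791), or -0.41 ± 0.26 without that library (0.351). Dio2 had 87, 30.5 and 58.9 CPM in AL and 17.8, 55.6, 78.6, 59.4 and 58.8 CPM in ALDR, with a log2 fold change of -0.12 ± 0.46 (adjusted p = 0.925) that was 0.10 without ALDR replicate 1. Cidea, a lipid droplet protein of brown adipocytes, and Ppargc1a, the coactivator of mitochondrial genes, differed by -0.09 ± 0.11 and 0.06 ± 0.22 (adjusted p = 0.735 and 0.926). None of the 28 tested genes of thermogenesis and brown adipocyte identity passed in edgeR, 7 had an unadjusted p under 0.05 (2 higher, 5 lower) and DESeq2 called 2 lower. Their median log2 fold change was -0.08, against 0 over all genes tested. Without ALDR replicate 1, 2 of the 28 fell, where 3.20% of all genes tested did: Prdm16, a transcriptional regulator of brown fat identity, by 0.89 (adjusted p = 0.0154) and S100b by 1.19 (adjusted p = 0.00124).

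Mitochondrial genes gave few calls. Of 83 nuclear genes for subunits of the respiratory chain and ATP synthase, 62 had a lower mean in ALDR. Of all 13845 genes tested, 6797 did. None of the 83 passed in edgeR (2 had an unadjusted p under 0.05, and DESeq2 called 0). Their median log2 fold change was -0.07, and 0.04 without ALDR replicate 5. That library had the lowest sum of these genes, 30018 CPM, against 38347 to 48874 CPM in the others. The 13 mitochondrially encoded genes had a median of -0.36 and 0 calls (4 with an unadjusted p under 0.05; DESeq2 called 0). Their summed level was 219674, 186933 and 221624 CPM in AL and 239365, 169005, 170102, 171425 and 128496 CPM in ALDR. ALDR replicate 1 had the highest sum and the other 4 ALDR libraries were below all AL libraries. In the fit without ALDR replicate 1, 4 of the 13 fell (mt-Nd1, mt-Nd2, mt-Nd3 and mt-Nd5, subunits of complex I), by 0.64, 0.73, 1.28 and 0.67, where 3.20% of all genes tested fell. Alas1, the first enzyme of haem synthesis, fell by 1.12 ± 0.16 (adjusted p = 0.00286), from 412, 330 and 417 CPM in AL to 225, 150, 153, 168 and 194 CPM in ALDR.

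Thermogenic genes did differ between the restricted groups. ALDR and DR brown fat differed in 722 of 13845 genes (5.21%), 269 higher (1.94%) and 453 lower (3.27%) in ALDR, and in 515 (3.73%) without ALDR replicate 1. This contrast shares the ALDR libraries with the comparison above but no AL library. Of the 28 genes of the thermogenesis list, 6 were higher in ALDR than in DR (Ucp1, Dio2, Elovl3, Adrb3, Gk and Otop1) and 1 was lower (Nrg4). When ALDR replicate 1 was left out, 5 were higher (1.40% of all genes) and 1 lower (2.32%), Elovl3 missing the threshold (adjusted p = 0.0502). Ucp1 had 937, 1928 and 1280 CPM in DR, below all 8 AL and ALDR libraries, and was 1.43 ± 0.30 higher in ALDR than in DR on the log2 scale (adjusted p = 0.0132), or 1.21 without ALDR replicate 1 (0.021). Dio2 had 3.87, 16.9 and 8.78 CPM in DR and was 2.55 ± 0.55 higher in ALDR (adjusted p = 0.0148). Adrb3, the beta-3 adrenergic receptor of adipocytes, had 115, 135 and 175 CPM in DR against 229 to 264 CPM in ALDR and was 0.76 ± 0.16 higher (adjusted p = 0.0135). Its level in AL was 399, 269 and 246 CPM. Ryr2, a calcium release channel, had 0.932, 0.652 and 1.65 CPM in DR and 6.78 to 13.6 CPM in ALDR, a difference of 3.01 ± 0.44 (adjusted p = 0.00153).

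Genes outside that list differed between the restricted groups as well. Pck2, the mitochondrial form of phosphoenolpyruvate carboxykinase, had 11, 13.1 and 13.1 CPM in AL, 13.3, 19.9, 17.5, 17.1 and 19.8 CPM in ALDR and 55.1, 37.3 and 39.7 CPM in DR. Its value in ALDR was 1.33 ± 0.14 lower than in DR (adjusted p = 0.000172). Against AL it differed by 0.50 ± 0.15 (adjusted p = 0.101), and by 0.58 without ALDR replicate 1 (0.0224). Mttp, which loads triglyceride onto lipoproteins, was past the threshold in both steps: it rose by 0.76 in ALDR over AL (adjusted p = 0.0326) and was 0.93 ± 0.16 lower in ALDR than in DR (0.00306). Tshr was 0.91 ± 0.13 higher in ALDR than in DR (adjusted p = 0.00153), where it had 5.73, 8.31 and 8.42 CPM. Abhd5, the activator of the triglyceride lipase of lipid droplets, ran the other way: it rose by 0.45 ± 0.10 in ALDR over AL (adjusted p = 0.029) and was 0.57 ± 0.10 higher in ALDR than in DR (0.00425). The count of 722 fell to 95 without DR replicate 1 and to 63 in a fit of only these groups. Without DR replicate 1, the 7 genes of the thermogenesis list and Abhd5 missed the threshold (Ucp1 1.22, adjusted p = 0.106), and Pck2, Mttp, Tshr and Ryr2 passed it.

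**Figure D3:**
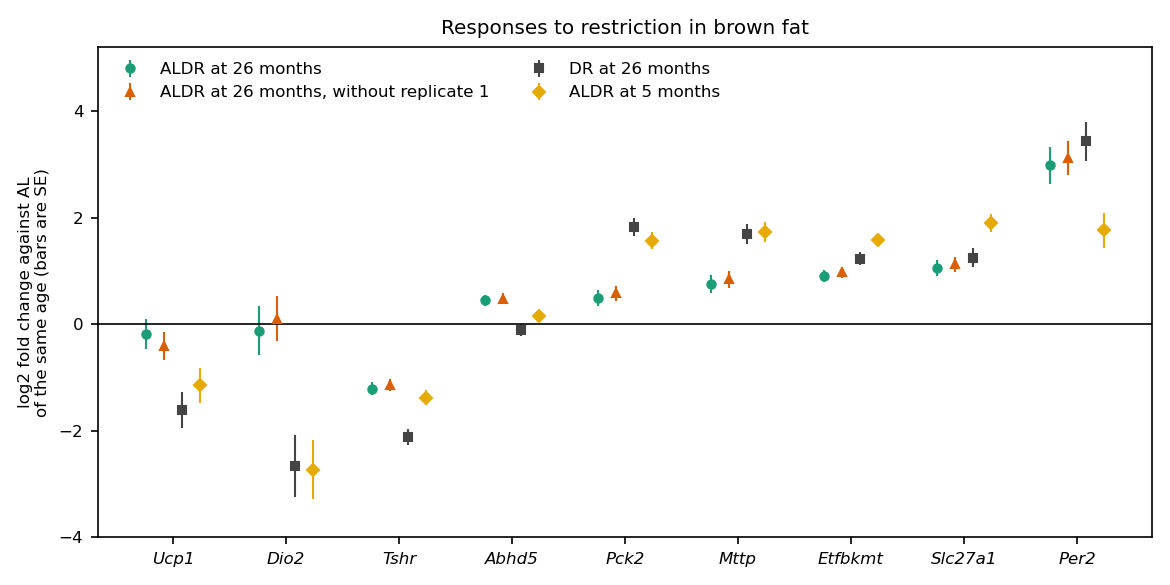
Log2 fold change against AL of the same age for 9 genes (edgeR estimates, bars are SE): ALDR at 26 months with and without replicate 1, DR at 26 months and ALDR at 5 months. Ucp1 and Dio2 are at -0.18 and -0.12 in ALDR at 26 months, at -1.61 and -2.66 in DR and at -1.15 and -2.73 in ALDR at 5 months, while Per2, Slc27a1 and Etfbkmt lie above 0 in all of them.

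Of 26 tested genes of the circadian list, 4 rose, among them Per2, Usp2 and Tef, and 0 fell, where 0.578% of all genes tested rose. The median log2 fold change of the list was 0.27. With the covariates, in the fit of only these 8 libraries and without AL replicate 3, 1 of the 26 passed in each, Per2; with the covariates Usp2 and Tef had adjusted p-values of 0.0911 and 0.138. Per2 (ENSMUSG00000055866; chromosome 1, 91415982 to 91459324), a repressor of the clock, had 4.33, 5.46 and 4 CPM in AL and 21.1, 45.9, 36.5, 48.1 and 29.9 CPM in ALDR. It rose by 2.98 ± 0.35 (adjusted p = 0.000382) with no overlap, ALDR replicate 1 being the lowest of its group. Usp2, a deubiquitinase with rhythmic expression, rose by 1.23 ± 0.20 (adjusted p = 0.0084), from 12.6, 15.4 and 14.8 CPM to 31, 28.7, 46.4, 38.7 and 22.2 CPM. Tef, a transcription factor that binds D-box sites, had 85.9, 109 and 103 CPM in AL and 234, 170, 196, 192 and 121 CPM in ALDR, and rose by 0.88 ± 0.20 (adjusted p = 0.0337). Here ALDR replicate 1 had the highest value. Wee1, a cell cycle kinase under clock control that is not on the list, rose by 0.94 ± 0.20 (adjusted p = 0.0281).

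Other core clock genes did not pass, and ALDR replicate 1 stood apart in several. Arntl (BMAL1), the activator of the Per genes, had 21, 18.5 and 19.5 CPM in AL and 5.77, 14.3, 11.8, 11.4 and 23.1 CPM in ALDR (adjusted p = 0.38). Dbp, another D-box factor, had 6.59, 19.3 and 11.3 CPM in AL and 69, 12.1, 22.4, 13.6 and 6.1 CPM in ALDR (adjusted p = 0.396). For both, ALDR replicates 1 and 5 were at opposite ends of the group. Per3 and Nr1d1, the repressor REV-ERB alpha, differed by 1.23 ± 0.30 and -1.15 ± 0.29 (adjusted p = 0.0514 and 0.0566) without overlap. Both passed without ALDR replicate 1 (0.0408 and 0.00303), and the list then had 6 genes that rose and 2 that fell, against 2.84% and 3.20% of all genes tested. Per1 had 39.3, 18.7 and 12.7 CPM in AL and 17.8, 66.1, 90.9, 58.5 and 20.3 CPM in ALDR (adjusted p = 0.217). The labels' protocol puts death of all mice within the same 3 hours before feeding, so these levels are from 1 time of day. Whether the libraries differed in clock phase was not tested.

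The RefSeq promoter table of GRCm38.p6, with 300 bases around each start, held entries for Usp2 and Tef, and none for Per2. The Tef promoters are shown since they hold a motif that was searched, which the Usp2 promoter does not. Both Tef promoters held a single E-box CACGTG, the palindromic site bound by the BMAL1 and CLOCK pair, shown in capitals and starting 127 and 138 bases before the start site.
Tef chr15:81802423-81802722 (plus strand): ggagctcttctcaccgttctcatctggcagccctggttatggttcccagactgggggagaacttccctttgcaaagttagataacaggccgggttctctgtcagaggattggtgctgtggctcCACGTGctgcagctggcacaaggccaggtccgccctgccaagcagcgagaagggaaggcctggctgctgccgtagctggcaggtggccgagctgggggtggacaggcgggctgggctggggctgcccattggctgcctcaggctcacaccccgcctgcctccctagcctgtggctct
Tef chr15:81811164-81811463 (plus strand): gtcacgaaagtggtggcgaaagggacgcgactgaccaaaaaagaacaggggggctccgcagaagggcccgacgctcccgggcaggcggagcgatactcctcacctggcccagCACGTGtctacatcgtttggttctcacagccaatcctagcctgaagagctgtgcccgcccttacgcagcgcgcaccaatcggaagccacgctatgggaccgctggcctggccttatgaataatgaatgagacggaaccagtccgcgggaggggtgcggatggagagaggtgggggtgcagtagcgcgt
The letters CACGTG occurred in 7.15% of all 32851 promoters searched, in a promoter of 11.4% (1214 of 10681) of the tested genes with an entry, of 11.3% (7 of 62) of those that rose and of 9.33% (7 of 75) of those that fell. The D-box letters TTATGTAA or TTACGTAA, searched on both strands, occurred in 0.899% of the tested genes, 3.23% (2 of 62) of those that rose and 0 of 75 that fell. The Usp2 promoter held neither. A match describes the letters only and shows no binding.

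Genes that respond to glucocorticoids had a higher median than any other pathway list; the muscle, epithelium, mesothelium and milk marker lists had higher ones. Of 22 tested, 19 had a higher mean in ALDR, the median log2 fold change was 0.68, 2 rose, and Dusp1, given above, fell, where 0.578% of all genes tested rose and 0.722% fell. Tsc22d3 (GILZ), a glucocorticoid-induced inhibitor of inflammatory transcription factors, had 24.2, 31.2 and 27.8 CPM in AL and 35.5, 71.2, 80.6, 82.3 and 45.4 CPM in ALDR. It rose by 1.18 ± 0.21 (adjusted p = 0.0118), with ALDR replicate 1 the lowest of its group. Fkbp5, a co-chaperone of the glucocorticoid receptor, had 4.06, 5.9 and 3.12 CPM in AL and 4.12, 14.1, 20.6, 30.3 and 29.2 CPM in ALDR. It rose by 2.17 ± 0.51 (adjusted p = 0.0413), and ALDR replicate 1 lay inside the AL range. It missed the threshold when any 1 library other than ALDR replicate 1 was left out (adjusted p = 0.0508 without ALDR replicate 5). With ALDR replicate 1 left out, 9 of the 22 rose and 1 fell, against 2.84% and 3.20% of all genes tested. Among the 9 were Zbtb16 (2.05, adjusted p = 0.00367), Hsd11b1, the enzyme that regenerates active glucocorticoid (1.28, 0.0159), and Cdkn1a, a cell cycle inhibitor (1.04, 0.00843). Lcn2 was also among them, and its level followed the epithelial markers, with 130 CPM in ALDR replicate 5 and 1.2 to 6.38 CPM in the other ALDR libraries. With the muscle and epithelium covariates no member of the list passed.

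Of 15 tested genes of fatty acid uptake and transport, 2 rose and 0 fell, with a median of 0.09, where 0.578% of all genes tested rose. Slc27a1 (FATP1; ENSMUSG00000031808; chromosome 8, 71568882 to 71587302), a fatty acid transport protein, had 147, 171 and 161 CPM in AL and 254, 355, 270, 384 and 387 CPM in ALDR. It rose by 1.05 ± 0.15 (adjusted p = 0.00305), every ALDR library being above every AL library. Slc27a2, a related transporter with acyl-CoA synthetase activity, rose by 1.10 ± 0.20 (adjusted p = 0.0118), from 69.8, 93.1 and 79.4 CPM to 122 to 213 CPM. With the covariates neither passed, at adjusted p = 0.0615 and 0.168. Slc22a5, the carnitine transporter, which is not on the list, rose by 0.52 ± 0.10 (adjusted p = 0.0189), from 63.9 to 69.5 CPM in AL to 85.6 to 111 CPM in ALDR.

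Of 35 tested genes of fatty acid oxidation and ketone metabolism 3 rose (Acot1, Ehhadh and Etfbkmt) and 0 fell, with a median of 0.08, where 0.578% of all genes tested rose. Acot1 (ENSMUSG00000072949; chromosome 12, 84009490 to 84018371), a cytosolic acyl-CoA thioesterase that responds to fasting, had 4.69, 7.3 and 5.71 CPM in AL and 20.5, 65.4, 31.7, 45.4 and 197 CPM in ALDR. It rose by 3.60 ± 0.62 (adjusted p = 0.0102). The highest value was in ALDR replicate 5, and with the muscle and epithelium covariates the log2 fold change was 2.18 (adjusted p = 0.08). Its neighbours Acot3 and Acot4 rose by 3.45 and 1.45 (adjusted p = 0.0227 and 0.0189), and reads of these near-identical genes may have been split between them. Acot3 was near the floor in AL, with 0.0902, 0.508 and 0.176 CPM, and had 1.05 to 5.07 CPM in ALDR. With the covariates neither neighbour passed (adjusted p = 0.185 and 0.08). Ehhadh, the bifunctional enzyme of peroxisomal beta-oxidation, had 110, 89.1 and 154 CPM in AL and 220, 470, 214, 436 and 509 CPM in ALDR, and rose by 1.65 ± 0.30 (adjusted p = 0.0119). Decr2 and Pxmp2, also of peroxisomes and chosen after their values were seen, rose by 0.41 and 0.83 (adjusted p = 0.0301 and 0.0486). ALDR replicate 1 had 14.3 CPM of Pxmp2, inside the AL range of 11.6 to 16.9 CPM. Etfbkmt, which methylates the electron transfer flavoprotein that takes electrons from fatty acid oxidation, rose by 0.90 ± 0.11 (adjusted p = 0.000684). With the covariates Etfbkmt passed (0.014), and Ehhadh, Decr2 and Pxmp2 did not (0.0998, 0.367 and 0.375).

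Of 21 tested genes of the lipid droplet list, Abhd5 and Cidec rose and 0 fell, with a median of -0.03, where 0.578% of all genes tested rose. Neither passed with the covariates (adjusted p = 0.29 and 0.379). Cidec, which enlarges lipid droplets, had 853, 742 and 763 CPM in AL and 1020 to 1269 CPM in ALDR, and rose by 0.52 ± 0.11 (adjusted p = 0.0323). Gpat4 and Agpat1, acyltransferases of glycerolipid synthesis outside that list, rose by 0.61 and 0.36 (adjusted p = 0.0301 and 0.0362). Cyp4b1, a fatty acid hydroxylase, rose by 1.30 ± 0.29 (adjusted p = 0.0337), and by 0.74 with the covariates (0.385). None of the 26 tested genes of fatty acid and triglyceride synthesis passed in edgeR (3 had an unadjusted p under 0.05, and DESeq2 called 0). Fasn, fatty acid synthase, had 34743, 13255 and 22754 CPM in AL and 36266, 22082, 22852, 25189 and 15934 CPM in ALDR. Both groups spanned a wide range, with a log2 fold change of 0.05 ± 0.30. Without ALDR replicate 1, 5 of the 26 fell, against 3.20% of all genes tested. They included the transcription factor genes Srebf1 (0.50, adjusted p = 0.0136) and Mlxipl (0.63, 0.0291). Srebf1 had 380, 383 and 320 CPM in AL, 566 CPM in ALDR replicate 1 and 236 to 284 CPM in the other ALDR libraries. Of 23 cholesterol synthesis genes, 0 passed in all libraries (1 higher and 2 lower at an unadjusted p under 0.05; DESeq2 called 2), and without ALDR replicate 1, 5 fell and 1 rose, against 3.20% and 2.84% of all genes tested.

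**Figure D4:**
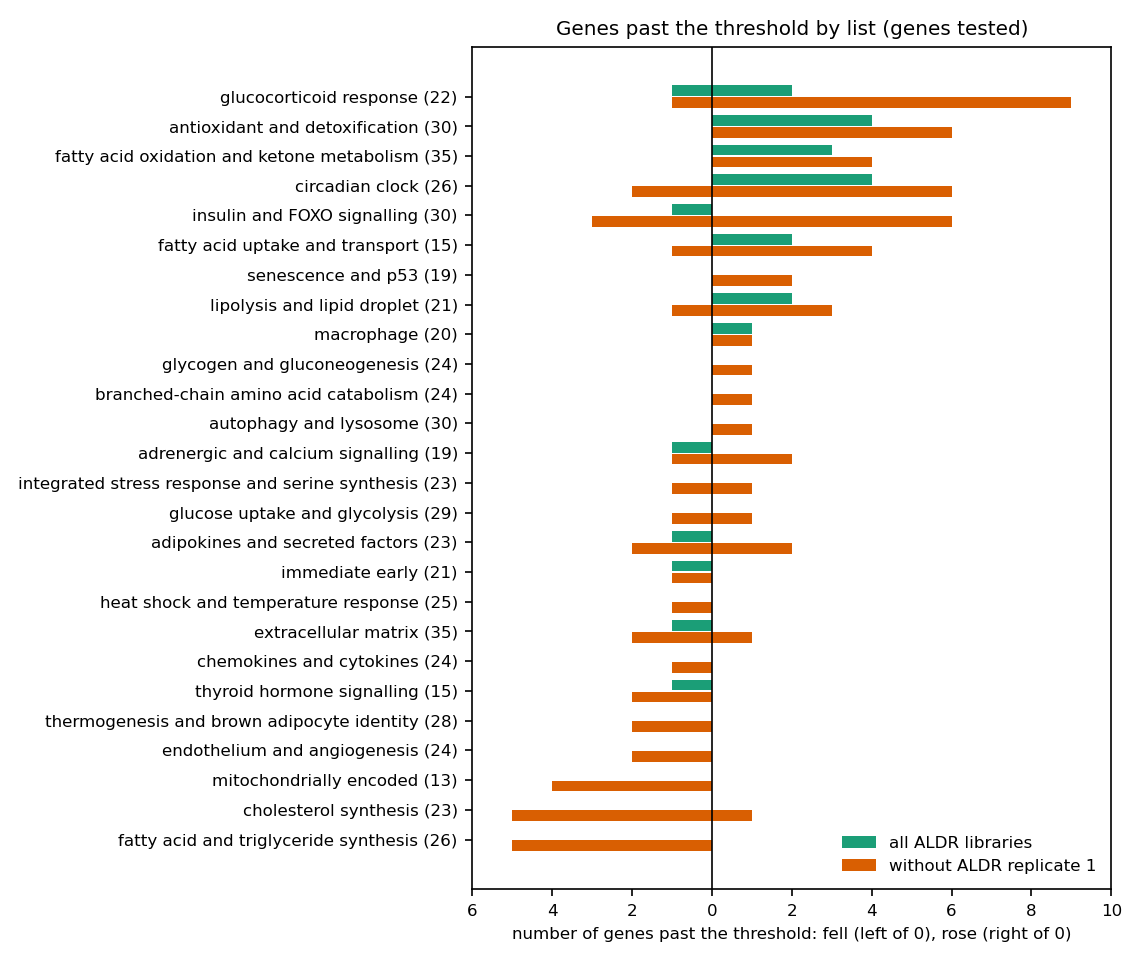
Number of genes past the threshold in each list that had any, rising to the right and falling to the left of 0, with all ALDR libraries (green) and without ALDR replicate 1 (orange); the number of genes tested stands in brackets. The glucocorticoid list has 2 rising genes with all libraries and 9 without that library, and no bar on the synthesis list appears with all libraries.

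Genes of glucose use and insulin signalling gave few calls with all libraries. None of 29 glucose uptake and glycolysis genes passed in edgeR (4 had an unadjusted p under 0.05, all higher; DESeq2 called 2), and of 30 insulin and FOXO genes Igf1 alone passed, where 0.722% of all genes tested fell. Without ALDR replicate 1, 6 of those 30 rose and 3 fell, against 2.84% and 3.20% of all genes tested. Irs2, an adaptor of the insulin receptor, rose by 1.84 and Foxo3, a transcription factor restrained by insulin, by 0.77 (adjusted p = 0.0328 and 0.0382). ALDR replicate 5 had 59.4 CPM of Foxo3 against 27.8 to 30.7 CPM in replicates 2 to 4, and without it as well Foxo3 rose by 0.44 (0.0273). Pdk4, which blocks glucose oxidation, was abundant in both groups, at 2900, 1601 and 2738 CPM in AL and 2568 to 3776 CPM in ALDR (adjusted p = 0.309). Glul, glutamine synthetase, had 1470, 955 and 1503 CPM in AL and 1850 to 2321 CPM in ALDR, and rose by 0.71 ± 0.14 (adjusted p = 0.0218). Car5b, a mitochondrial carbonic anhydrase, rose by 0.91 ± 0.14 (adjusted p = 0.00678), and Idh2, mitochondrial isocitrate dehydrogenase, fell by 0.51 ± 0.12 (0.0353).

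Of the secreted factors, Lep, the leptin gene, separated the groups without passing the test. It had 151, 140 and 178 CPM in AL and 108, 23.9, 48.2, 22.7 and 8.29 CPM in ALDR, with ALDR replicate 1 closest to AL. The log2 fold change was -1.89 ± 0.48 (adjusted p = 0.0613), and -2.61 ± 0.37 without ALDR replicate 1 (0.00128). Retn, resistin, rose by 0.87 without that library (adjusted p = 0.0467; 0.145 with it). Adipoq, adiponectin, had 591, 730 and 570 CPM in AL and 665 to 814 CPM in ALDR, with overlap (adjusted p = 0.289). The summed level of 10 white adipocyte markers, which include Lep and Retn, was 376 to 463 CPM in AL and 135 to 320 CPM in ALDR. Lep itself made up 140 to 178 CPM of this in AL and 8.29 to 108 CPM in ALDR. Of the 8 markers tested, 3 had a higher and 5 a lower mean in ALDR, and 0 passed in edgeR.

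Of 30 tested genes of the antioxidant and detoxification list, 4 rose and 0 fell, with a median of 0.17, where 0.578% of all genes tested rose. None of the 30 passed with the covariates or without AL replicate 3. Gclm, the regulatory subunit of the enzyme that limits glutathione synthesis, rose by 0.60 ± 0.12 (adjusted p = 0.0204), from 25.1 to 34.1 CPM in AL to 37.9 to 55.9 CPM in ALDR, and Gstt2, a glutathione transferase, rose by 0.71 ± 0.12 (0.0076). Ces1d, a carboxylesterase, had 1009, 1084 and 1011 CPM in AL and 1259 to 1437 CPM in ALDR, and rose by 0.36 ± 0.09 (adjusted p = 0.0418). Cyp2e1, a cytochrome P450 induced by fasting, had 5.14, 15.1 and 7.35 CPM in AL and 16.9, 36, 45.8, 68.4 and 109 CPM in ALDR. It rose by 2.57 ± 0.53 (adjusted p = 0.0225), with the highest value in ALDR replicate 5, and by 1.42 with the covariates (0.33). Por, the reductase that serves cytochromes P450, rose by 0.43 (adjusted p = 0.0433) and Gstz1 by 0.49 (0.0256). Of DNA repair genes, all but Rev1 chosen after their values were seen, Rev1, a polymerase that copies damaged DNA, rose by 0.41 ± 0.07 (adjusted p = 0.00796). Xpc and Ercc5, of nucleotide excision repair, rose by 0.41 and 0.31 (adjusted p = 0.0443 and 0.0448; Xpc passed only without ALDR replicate 1 or 3 when 1 library was left out, with 0.054 without ALDR replicate 5), while Mutyh, a glycosylase that removes adenine paired with oxidised guanine, fell by 1.39 ± 0.27 (0.0171).

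No list of cytoskeleton genes was tested, and of those given here Tuba1a, Mapt and Arhgef2 were chosen after their values were seen. Actb, beta-actin, had 540, 610 and 501 CPM in AL and 351, 405, 400, 366 and 413 CPM in ALDR, and fell by 0.51 ± 0.10 (adjusted p = 0.0215). Tuba1a, an alpha-tubulin, fell by 0.48, Mapt, which binds microtubules, by 1.13, Arhgef2, which binds microtubules as well, by 0.67 and Tln2, which links integrins to actin, by 0.69 (adjusted p = 0.0323, 0.0118, 0.0125 and 0.00628). Col18a1, a basement membrane collagen, fell by 0.40 ± 0.09 (adjusted p = 0.0434), as the single member of 35 matrix genes that passed, where 0.722% of all genes tested fell. Of the 35, 20 had a higher mean in ALDR. Without ALDR replicate 5, Col18a1 missed the threshold (0.057). E2f2, a cell cycle transcription factor, fell by 1.78 ± 0.33 (adjusted p = 0.0144), from 21.5, 17.9 and 25.2 CPM to 4.29 to 9.7 CPM. None of 25 proliferation genes passed (0 with an unadjusted p under 0.05; DESeq2 called 0).

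Of 20 tested macrophage genes 1 rose and 0 fell in edgeR, where 0.578% of all genes tested rose. Cd163, a scavenger receptor of resident macrophages, had 4.51, 9.01 and 5.71 CPM in AL and 9.22, 18.6, 18.1, 13.5 and 13.9 CPM in ALDR, and rose by 1.19 ± 0.28 (adjusted p = 0.0443). Of the others, Adgre1 and Cd68, which mark macrophages in general, had overlapping values (adjusted p = 0.877 and 0.846). Nos2, inducible nitric oxide synthase, on no list and chosen after its values were seen, fell by 0.76 (adjusted p = 0.0189). Of 24 chemokine and cytokine genes, 17 had a lower mean in ALDR and 0 passed in edgeR (1 higher and 4 lower at an unadjusted p under 0.05; DESeq2 called 1 lower). Of 34 interferon-stimulated genes, 32 had a lower mean in ALDR, with a median of -0.35 and 0 calls (5 with an unadjusted p under 0.05; DESeq2 called 0). The T and NK cell list had a median of -0.72 and the B and plasma cell list of -1.07, with 0 of 13 called in each (1 and 0 with an unadjusted p under 0.05; DESeq2 called 0). AL replicate 2 held the highest AL sum of both lists, 53.3 CPM against 6.59 and 9.06 for T and NK cells and 291 CPM against 72.4 and 71 for B and plasma cells. In ALDR these sums were 3.52 to 22.1 CPM and 73.5 to 354 CPM, ALDR replicate 5 having the highest B and plasma cell sum of all 8 libraries.

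Prlr, the prolactin receptor, had 0.632, 2.28 and 2.06 CPM in AL and 2.55, 14.5, 10.4, 5.12 and 29.5 CPM in ALDR. It rose by 2.86 ± 0.67 (adjusted p = 0.0436). ALDR replicate 5 was highest and replicate 1 lowest both here and in the epithelial marker sum, and the log2 fold change was 0.83 with the covariates (adjusted p = 0.471). Herpud1, of protein degradation at the endoplasmic reticulum, rose by 0.61 ± 0.08 (adjusted p = 0.00146), with 59.3 to 60.5 CPM in AL and 84.7 to 96.2 CPM in ALDR. Stxbp2, which regulates vesicle fusion, rose by 0.58 ± 0.07 (adjusted p = 0.000684) and Egln3, a prolyl hydroxylase that marks HIF for degradation, by 0.86 ± 0.14 (0.00796). The libraries of the groups did not overlap for either. With the covariates Stxbp2 passed (0.00745) and Egln3 did not (0.15).

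**Figure D5:**
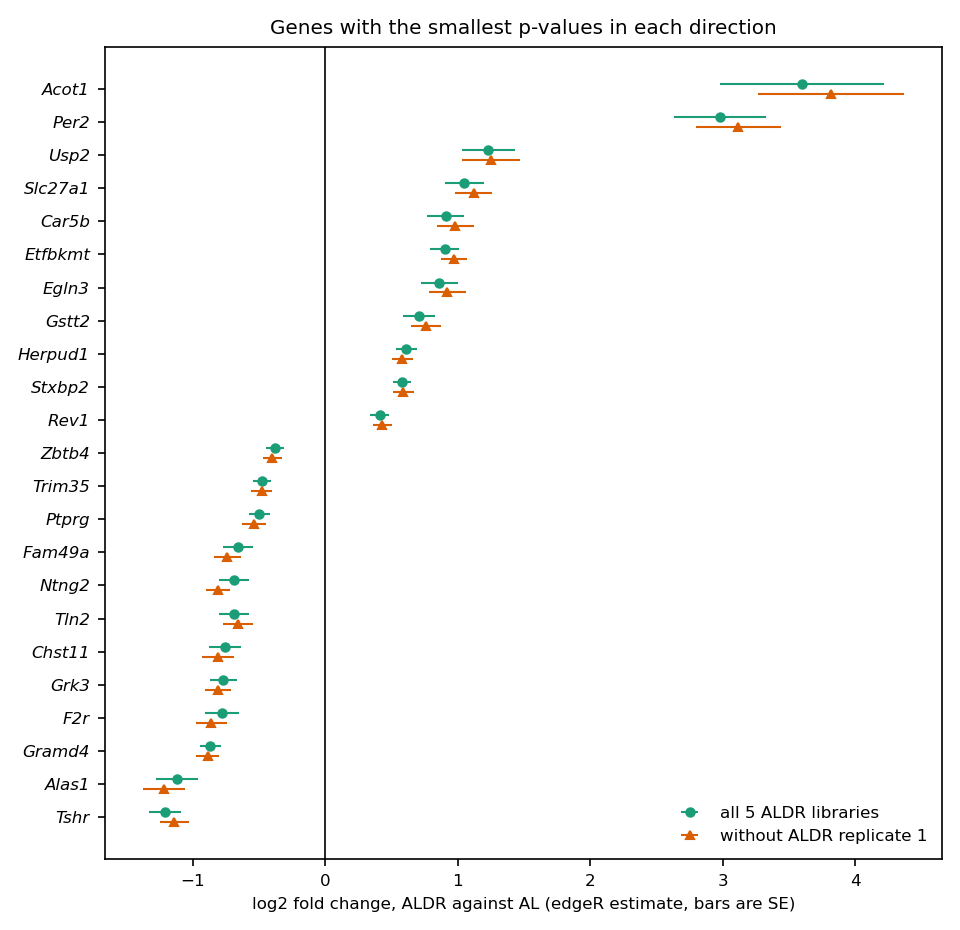
Log2 fold change of ALDR against AL (bars are SE) for called genes of smallest p-value, rising and falling, leaving out provisional symbols, 11 rising and 12 falling, with all 5 ALDR libraries (green circles) and without ALDR replicate 1 (orange triangles). The estimates of each gene lie on the same side of 0, from 3.60 for Acot1 to -1.21 for Tshr with all libraries.

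Leaving out ALDR replicate 1 added 655 genes. Rasl12, a small GTPase, had 181, 182 and 174 CPM in AL, 205 CPM in ALDR replicate 1 and 80.6, 84.2, 79.5 and 61.5 CPM in ALDR replicates 2 to 5. Its log2 fold change was -0.81 with that library and -1.23 ± 0.14 without it (adjusted p = 0.132 and 0.000187). Fer1l6 and Fam69b lay inside the AL range in replicate 1, at 16.8 and 33.8 CPM in replicate 1 and at most 4.08 and 18.1 CPM in the other ALDR libraries. Sdc4, a cell surface proteoglycan, was inside the AL range in replicate 1, with 27.6 CPM, and Clk1, a splicing kinase, was just below it, with 69.9 CPM. They were at 77 to 94.2 and 109 to 120 CPM in the others. The library was singled out on these data, so calls made without it are not independent evidence.

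The response at 26 months was set beside that at 5 months, which shares no library with it. Of the 180 genes, 171 (95%) had the same direction at 5 months, against 65.5% of all genes tested. Restriction at 5 months changed 1997 genes (14.4%), and 122 were called at both ages, 67.8% of the 26 month list and 6.11% of the 5 month list, 120 of them in the same direction. The median size of change of the 180 genes was 0.67 at 26 months, where they were chosen, and 0.64 at 5 months when signed by their direction in the old mice. Slc27a1 rose by 1.90 at 5 months and Etfbkmt by 1.58, while Chst11, Fam49a and Igf1, which fell at 26 months, differed by -0.10, -0.05 and -0.10 (adjusted p = 0.689, 0.829 and 0.792). A test of the difference between ages called 2 genes (0.0144%): Trmt9b differed by -0.45 at 26 months and rose by 0.81 at 5 months, and Xrcc6, of DNA end joining, differed by 0.14 and rose by 0.91 (adjusted p of the difference = 0.0459 for each). The test called 0 genes without any 1 of the AL libraries at 26 months, and 159 with DESeq2. It also called 0 without ALDR replicate 2, 3 or 4 at 26 months, and 18 without ALDR replicate 5. Without ALDR replicate 1 at 26 months it called 2, of which 1 was also called with all libraries. For Ucp1 and Dio2 the difference between ages was 0.97 and 2.61 (adjusted p = 0.342 and 0.16). For Chst11, Fam49a and Igf1 it was -0.67, -0.61 and -0.83 and did not pass either (adjusted p = 0.16, 0.154 and 0.202).

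White fat of the same diet groups was read from its own table, in which ALDR differed from AL in 690 of 15828 genes (4.36%). The depots shared 34 called genes, 18.9% of the brown fat list and 4.93% of the white fat list, 29 rising and 5 falling (of all white fat genes 2.66% rose and 1.70% fell), and all 34 had the same direction in both. Per2 rose by 2.98 in brown and 2.12 in white fat, Slc27a1 by 1.05 and 1.03, Car5b by 0.91 and 1.03 and Herpud1 by 0.61 and 0.37. The clock genes Per2 and Tef, the cell cycle kinase gene Wee1, glucocorticoid-induced Fkbp5, Glul, Cidec, Gpat4, Acot4, Gstt2, Cyp2e1, Por and Xpc were among those that rose in both. The 5 that fell in both were BC034090, Actb, Slc23a2, Col18a1 and Elmo2. The labels do not say whether the depots came from the same mice.

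Across the 20 brown fat libraries, the genes with log2 CPM most like that of Tshr were Gramd4 (Pearson r = 0.937), Itsn1 (0.92), Grk3 (0.919), Dusp8 (0.9) and Leo1 (0.898). The libraries share diet groups, so this describes them and is no test. Of the 5, Gramd4, Grk3 and Dusp8 fell in ALDR, while Itsn1 and Leo1 differed by -0.19 and -0.38 (adjusted p = 0.101 and 0.168).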

How the data were processed

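RNA was sequenced from brown fat with a stranded polyA kit as single-end reads, per the labels' protocols. The deposited values are raw counts per gene, and the submitters' processing notes name Trim Galore 0.3.7, TopHat2 2.0.14, DESeq2 and the build GRCm38; the counter and annotation are not given in the sources used here. Of 25913 gene identifiers, 25012 had a symbol in the GENCODE annotation of GRCm38, which also gave the gene locations.

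Low counts were filtered with filterByExpr and libraries scaled by TMM. All 20 brown fat libraries entered 1 edgeR 4.0.16 quasi-likelihood fit (R 4.3.3) with group as the only term, and p-values were adjusted over all 13845 genes by Benjamini-Hochberg. SE is the log2 fold change divided by the root of its F statistic. DESeq2 1.42.0, its size factors, no filter, a replicate block, a fit of only the groups compared, marker covariates and leaving out each library were alternatives. Scripts were tested on simulated data. The libraries, gene lists and rules were chosen with earlier results of these data known. Genes named were, leaving out provisional symbols and low levels, the 12 with the smallest p-values and the 4 with the largest changes in each direction, called list members, a fixed set of known genes, genes called at both depots or in the test of ages, and the 4 in each direction gained without ALDR replicate 1. A further set, among them the DNA repair and cytoskeleton genes and those of ALDR against DR outside the lists, was chosen after its values were seen. Some genes that these rules name are not reported here.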

Additional observations from a re-analysis of the deposited data

Results flagged for a closer look

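In 21 of 113 groups of 5 ALDR values, 1 library lay further from the rest than Dixon's test allows, where chance gives about 1 group in 20. That share is no yardstick here: several of these genes were named because they passed only without ALDR replicate 1, and the milk protein genes were added because ALDR replicate 5 carried them and vary together. ALDR replicate 1 was the one apart in 14. It was lowest for Gstt2 (31.1 CPM), Dio2 (17.8), Sdc4 (27.6), Zbtb16 (9.97), Clk1 (69.9), Gpat4 (313), Cdkn1a (22.8) and Retn (31.7). It was highest for Rasl12 (205 CPM), Fer1l6 (16.8), Fam69b (33.8), Tuba1a (28.8), Srebf1 (566) and Mlxipl (522).

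ALDR replicate 5 was highest in the other 7, all milk protein genes: Csn1s1 (13564 CPM), Csn1s2a (15036), Csn2 (23634), Csn3 (2140), Wap (1686), Lalba (115) and Glycam1 (3948).

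With all libraries, the test of the response at 26 against 5 months called Trmt9b, at -1.26 on the log2 scale, and Xrcc6, at -0.77 (edgeR, adjusted p = 0.0459 for each). It called 0 genes when an AL library at 26 months was left out.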

How the results depend on the processing

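The 180 calls of ALDR against AL became 655 with DESeq2, 4 in a fit of only the groups compared, 14 with the marker covariates, 502 and 25 at adjusted p under 0.1 and 0.01, and 902 without ALDR replicates 1 and 5, an alternative chosen after seeing the data; leaving out 1 library gave 17 to 835. The 835 calls without ALDR replicate 1 became 1306 with DESeq2 and 29 with only the groups compared, and 180 to 902 with a further library left out. The 722 calls against DR became 1136 with DESeq2 and 63 with only the groups compared, and 95 to 822 with 1 library left out. The 2 genes that differed between ages became 159 with DESeq2, 0 with no filter and 0 with only the groups compared, and 0 to 18 with 1 library left out. The 690 calls in white fat became 1220 and 177, and 191 to 1159 with 1 library left out. DESeq2 size factors left the counts of 180, 722, 2 and 690 within 1.5 times; they were not run without ALDR replicate 1. With a replicate block the counts were 84, 196, 267 and 0 in brown fat, in the order above. The replicate numbers do not pair the libraries: same-numbered AL and ALDR libraries deviated with r of 0.302, 0.167 and -0.414. Direction was followed for the 108 genes examined singly, and of these the ones that changed it were not among the 70 called. Ppargc1a was -0.16 with the covariates (-0.17 to 0.17 with 1 library left out). Srebf1 was 0.05 with the covariates. Cd68 was -0.04 with the replicate block (-0.07 to 0.58). Fasn was -0.01 without ALDR replicates 1 and 5 and -0.13 without replicate 1 (-0.23 to 0.44). Dio2 was 0.14 and 0.10 in those fits (-0.43 to 0.27). Adgre1 was 0.03 with the covariates and 0.03 without ALDR replicates 1 and 5 (-0.41 to 0.39), and Cidea spanned -0.23 to 0.01. The cause was not tested.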
